A study of Mus musculus with 12 samples.

Results

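The 12S rRNA fragments of the mouse mitochondrion were the subject of this report. A sequence was counted as one when it matched the mtDNA of GRCm39 without a mismatch on the forward strand and most of the match lay in mt-Rnr1, the gene of the 12S rRNA. Of 204 unique sequences in the series, 159 matched the mtDNA exactly and 24 of these were 12S fragments. They held 25736 of 403352 reads, or 6.38%. The gene mt-Rnr1 (ENSMUSG00000064337.1) spans chrM:70-1024 on the + strand and is 955 nt long, so position 70 is the first base of the 12S rRNA. The gene mt-Rnr2 of the 16S rRNA, at chrM:1094-2675, held 75 of the exact sequences and serves here for comparison.

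The study sequenced the size-selected small-RNA fraction from primordial germ cells (PGCs) and gonadal somatic cells (SCs) of CD1 mouse embryos. Female and male gonads were taken on 3 embryonic days, E11.5, E12.5 or E13.5, and the 2 cell types were parted with magnetic beads carrying an antibody that binds PGCs. This gave 12 libraries, 1 for each cell type, sex and day, each from pooled gonads of several litters, so no condition had a replicate. All animals were of 1 strain, and the labels name no treatment. Libraries are named by cell type, day and sex, so that PGC11F is the library of female PGCs at E11.5. The deposited tables hold mitochondrial sequences that the authors also matched to a piRNA collection. They hold no marker transcripts, so the cell type labels could not be checked in them.

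The 12S rRNA is the RNA of the small subunit of the mitochondrial ribosome. It is made as part of a long heavy-strand transcript that also carries tRNAs and the 16S rRNA, and it is released when the tRNAs on either side are cut out. piRNAs are small RNAs that guide PIWI proteins, in the germline and, as the study states, also in somatic cells. In mt-Rnr1 the 5′ neighbour is the tRNA gene mt-Tf at chrM:1-68 and the 3′ neighbour is mt-Tv at chrM:1025-1093, so that only position 69 parts mt-Tf from the 12S rRNA.

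All 7 fragments with the 5′ end at position 70 are printed because they share that end and differ only in where they stop. They form a ladder inside the first 30 nt of the gene, and the capital marks the last base of each.
70-85, 16 nt: aaaggtttggtcctgG
70-86, 17 nt: aaaggtttggtcctggC
70-87, 18 nt: aaaggtttggtcctggcC
70-88, 19 nt: aaaggtttggtcctggccT
70-91, 22 nt: aaaggtttggtcctggccttaT
70-95, 26 nt: aaaggtttggtcctggccttataatT
70-99, 30 nt: aaaggtttggtcctggccttataattaatT

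The genome around the 5′ end of the gene, chrM:51-110 on the + strand of GRCm39, is given with position 70 in capitals to show the end of mt-Tf before it. The base directly before position 70 was C.
chrM:51-110: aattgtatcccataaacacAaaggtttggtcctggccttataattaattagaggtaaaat

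The other 17 fragments were internal: they started at 11 further 5′ ends between positions 342 and 1002. The gene was covered in 8 separate segments, which together held 237 of its 955 nt, or 24.8%. The segments were chrM:70-99, chrM:342-370, chrM:420-447, chrM:574-600, chrM:712-764, chrM:780-807, chrM:823-838 and chrM:999-1024. In 4 pairs of internal fragments the 3′ end was shared and the 5′ ends lay 3 bases apart. These pairs are printed with the 3 additional bases of the longer fragment in capitals.
420-438: GTTaggacctaaactcaat
423-438: aggacctaaactcaat
420-442: GTTaggacctaaactcaataacg
423-442: aggacctaaactcaataacg
574-599: GCTtaaaactcaaaggacttggcggt
577-599: taaaactcaaaggacttggcggt
999-1024: ATActggaaagtgtgcttggaataat
1002-1024: ctggaaagtgtgcttggaataat

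The last pair ended at position 1024, the last base of the 12S rRNA. The stretch chrM:995-1034, with position 1024 in capitals, shows that mt-Tv follows without a gap.
chrM:995-1034: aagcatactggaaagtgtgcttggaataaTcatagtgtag

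A further pair of internal fragments met end to end. The fragment at 712-733 stopped at the base before the start of the fragment at 734-764, which with 31 nt was the longest of the 24. The last base of each is in capitals.
712-733: tattaaagtaagcaaaagaatC
734-764: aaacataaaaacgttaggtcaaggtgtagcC

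The remaining internal fragments were 342-368, 342-370, 423-447, 574-600, 712-737, 780-807 and 823-838. The fragment with the most reads among the 17 was the 29-nt one at 342-370, printed with its last base in capitals.
342-370: aattatcttcggcgtaaaacgtgtcaacT

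By first base, 16 of the 24 fragments began with A, and they held 89.7% of the 12S reads. The other first bases were G in 4, T in 3 and C in 1. In the genome the next base after the 3′ end was A for 16 fragments, C for 6, T for 2 and G for none. GC content ranged from 22.7% in the 22-nt fragment at 712-733 to 55.6% in the 18-nt fragment at 70-87. No exact sequence of the series lay on mt-Tf, and 1 sequence with 134 reads lay on mt-Tv.

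Reads were concentrated at the first base. The 7 fragments at position 70 held 20434 of the 25736 reads, or 79.4%, and the 17 internal fragments held 5302, or 20.6%. The levels below are in rpm, the reads of a fragment scaled to 1000000 of the library's reads that passed an abundance filter of 10 CPM, the reads of a sequence per 1000000 before that filter. Reads of rarer sequences are not in that total, so a level in rpm is higher than the same count in CPM of the unfiltered library, by a factor that may differ between libraries. As no listed sequence was under 10 CPM, the factor was at most 1.46 to 1.78, depending on the library. A sequence is listed in a table only if it passed the filter, and the lowest listed level was 14.6 to 17.8 rpm across the 12 libraries (66 to 109 reads). A fragment absent from a library is therefore below that level, not shown to be missing from the cells.

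The 18-nt fragment at 70-87 had the most reads of all, 8651 in 10 libraries. In PGCs it was at 85.2 rpm in PGC11F, 277 in PGC11M, 62.9 in PGC12F, 82.8 in PGC12M and 298 in PGC13M, and it was not listed in PGC13F. In SCs it was at 94.2 rpm in SC11F, 307 in SC11M, 99.3 in SC12M, 139 in SC13F and 210 in SC13M, and it was not listed in SC12F. The 4 highest libraries were the males of E11.5 and E13.5 in both cell types, and all other libraries were below them.

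The 17-nt fragment at 70-86 was the most widely listed, in 11 libraries with 8086 reads. Its levels in PGC11F, PGC11M, PGC12F, PGC12M, PGC13F and PGC13M were 73.5, 223, 50.1, 57.4, 216 and 209 rpm. In SC11F, SC11M, SC12M, SC13F and SC13M they were 88.4, 269, 78.5, 102 and 195 rpm. The same 4 male libraries and PGC13F were the highest, and the other libraries were below them.

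The 16-nt fragment at 70-85, the shortest, held 1553 reads, of which 1157 were in 1 library. It was at 229 rpm in PGC13F, and at 22.2, 18.8, 20.6 and 21.4 rpm in PGC11M, PGC13M, SC11M and SC13M. The other 7 libraries did not list it. The 30-nt fragment at 70-99, the longest of the ladder, held 1347 reads in 8 libraries. It was at 20.03 rpm in PGC11F, 36.0 in PGC11M, 41.4 in PGC13M, 22.3 in SC11F, 45.4 in SC11M, 19.04 in SC12M, 32.9 in SC13F and 35.1 in SC13M. The 19-nt fragment was at 23.7 rpm in PGC11M, 26.5 in PGC13M, 23.2 in SC11M and 17.6 in SC13M, which are all male libraries, and no other library listed it. The 22-nt fragment was listed in PGC13M and SC11M and the 26-nt fragment in PGC11M and PGC13M, at 16.9 to 19.95 rpm.

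The make-up of the ladder varied little among 10 of the 11 libraries that listed it. In these 10 the 17-nt fragment took 39.7% ± 3.21 (SD, n = 10) of the reads at position 70 and the 18-nt fragment 49.2% ± 4.91 (SD, n = 10). The ratio of 18-nt to 17-nt reads was 1.24 ± 0.136 (SD, n = 10) and lay between 1.07 and 1.44. The 30-nt fragment took 0 to 12.0%. Between libraries the ratio thus varied less than the level at position 70, which spanned 113 to 682 rpm in the same 10 libraries.

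PGC13F stood apart from these 10. There the 16-nt fragment took 51.4% of the reads at position 70, the 17-nt fragment 48.6%, and the 18-nt fragment was not listed. The last bases of its reads differed too. Of its 12S reads, 39.9% ended in C and 45.6% in G, while in the other 10 libraries with 12S reads 64.2% to 100% ended in C and 0% to 7.37% in G. Fragments ending in A took 7.42% of its 12S reads, and they took 0% elsewhere: the 2 fragments with a final A, 342-368 and 574-600, were listed in PGC13F alone. Among exact sequences of other mitochondrial genes the same library had 42.1% of reads ending in A, against 3.16% to 8.52% in the other libraries, and 4.42% ending in C, against 22.9% to 35.9%. The cause of this difference was not tested. Without PGC13F, 22 fragments remained listed and the share at position 70 was 79.1%.

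The internal fragments were listed near the lowest level that the tables show. Over fragments and libraries there were 45 listed values, from 14.8 to 49.1 rpm with a median of 20.5 rpm, and 33 of them were under 25 rpm. At position 70 the 42 listed values ran from 16.9 to 307 rpm with a median of 53.7 rpm, and 14 were under 25 rpm. A difference of a few rpm could thus place an internal fragment in a table or leave it out.

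The 29-nt fragment at 342-370 held 904 reads in 7 libraries. It was at 20.3, 19.95 and 18.8 rpm in PGC11F, PGC11M and PGC13M, and at 17.7, 18.2, 23.1 and 38.1 rpm in SC11F, SC11M, SC12M and SC13F. It was the only internal fragment listed at E12.5, in SC12M, and the only one listed in PGC11F and SC11F.

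The 5′ end with the most fragments inside the gene was position 423, with 3. The 16-nt fragment at 423-438, with the one at 823-838 the shortest of the internal ones, was at 27.97 rpm in PGC11M, 27.8 in PGC13M and 14.8 in SC13M. The 20-nt fragment at 423-442 was listed in PGC11M at 17.3 rpm, and the 25-nt fragment at 423-447 in SC13F at 19.1 rpm. Those at position 420, which share both 3′ ends with the first and the second of these, were listed in PGC11M, PGC13F, PGC13M, SC11M and SC13M at 16.8 to 39.3 rpm.

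Male PGCs of E11.5 and E13.5 listed the most internal fragments. PGC11M listed 13 of the 17 and PGC13M 11, and these 11 were all among the 13, while no other library listed more than 6. Of all 159 exact sequences they listed 89 and 92, and another library listed at most 83. Together these libraries held 3056 of the 5302 internal reads, or 57.6%. The 5 fragments from 712 to 838, 29.4% of the 17, were listed in both of these libraries and in no other, with 1134 reads, as were 6.29% of all 159 exact sequences. The 31-nt fragment at 734-764 was at 22.2 rpm in PGC11M and 27.5 rpm in PGC13M, and the 16-nt fragment at 823-838 at 22.6 and 18.3 rpm. Without PGC11M and PGC13M, 10 internal fragments remained listed.

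Both fragments at the 3′ end of the gene came from male libraries. The 26-nt fragment at 999-1024 was at 22.0 rpm in PGC11M, 16.9 in PGC13M, 19.1 in SC11M and 26.5 in SC13M, the same 4 libraries that listed the 19-nt fragment at position 70. The 23-nt fragment at 1002-1024 was listed in SC13M at 18.3 rpm.

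Fragments at position 70 were shorter than the internal ones in every library that listed both. Over all libraries their read-weighted mean length was 18.4 nt, against 24.3 nt for the internal fragments. Within a library the mean difference was -7.31 nt ± 2.54 (SD, n = 9), and it was below 0 in 9 of 9 libraries. A two-sided exact sign-flip permutation test gave p = 0.00391, the smallest that 9 libraries allow, and 0.00781 after Benjamini-Hochberg adjustment over 2 such tests. The difference was -1.37 nt (exact p = 0.0479), over 11 libraries, when 12S sequences with up to 1 mismatch were added. These include a 16-nt internal sequence at 978-993 with 5851 reads, against 5302 reads of all 17 exact internal fragments. The difference was -6.27 nt with exact p = 0.125, the smallest that 4 libraries allow, when sequences under 25 rpm were left out.

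The share of reads at the first base was compared between the rRNAs. In the 12S rRNA it was 89.8% in PGC11F, 65.7% in PGC11M, 100% in PGC12F and PGC12M, 82.2% in PGC13F and 68.6% in PGC13M. PGC12F and PGC12M listed no internal 12S fragment, so their 100% holds only for fragments above the listing minimum. In SCs the 12S share was 92.0% in SC11F, 89.1% in SC11M, 89.5% in SC12M, 78.3% in SC13F and 80.9% in SC13M. In the 16S rRNA the share of exact reads at the first base of mt-Rnr2 was 67.3% to 87.7% in the same 11 libraries, with a mean of 78.7%. The 12S share exceeded the 16S share by 6.41 percentage points ± 8.22 (SD, n = 11), with 8 libraries above 0 and 3 below, and a two-sided exact sign-flip permutation test gave p = 0.0303, also after adjustment over the 2 tests. This call was lost without any of 6 libraries (PGC12F, PGC12M, PGC13F, SC11M, SC12M or SC13F), where the exact p reached 0.0605, and the difference was -20.1 percentage points with sequences of up to 1 mismatch, where SC12F joined as a further library, for 12 in all. It was 10.8 percentage points (exact p = 0.00195) when sequences under 25 rpm were left out and 14.7 (exact p = 0.0215) with each sequence counted once. Of the listed 12S values, 33 of 45 internal ones were under 25 rpm, against 14 of 42 at position 70. The minimum of 25 rpm thus removes mainly internal 12S values, so the smaller p is not firmer evidence.

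The 12S sequences with 1 mismatch were 4, with 8314 reads, and are not counted among the exact fragments above. A 16-nt sequence at 978-993 held 5851 of these reads and was listed in 12 of 12 libraries, and a 17-nt sequence from the same start held 541. The other two started at position 70, were 18 and 17 nt long and differed from the genome in their last base, with 1537 and 385 reads.

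Copies of mtDNA in the nuclear genome carry stretches like these, and a short sequence is found by chance in a large genome more often than a long one. All 7 fragments at position 70 had a match on the nuclear chromosomes with up to 1 mismatch. The match was exact for the 4 fragments of 16 to 19 nt, which held 91.7% of the reads at position 70. The number of exact nuclear places was 3 at 16 nt and 1 each at 17, 18 and 19 nt. That of the 19-nt fragment was at chr3:108984216-108984234 on the - strand of GRCm39, where no gene is annotated, and the 17-nt and 18-nt fragments matched inside it. The 26-nt and 30-nt fragments had 1 place each and the 22-nt fragment had 2, all with 1 mismatch. A place common to these 3 lay on chromosome 14, with the mismatch at base 5 counted from the 5′ end. For the 30-nt fragment it was chr14:36857939-36857968 on the - strand, opposite an exon of the lncRNA gene Gm62480.

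Among the internal fragments the result was the other way round. For 15 of 17, which were 19 to 31 nt long and held 89.5% of the internal reads, 0 nuclear places were found with up to 1 mismatch. The 2 exceptions were the 16-nt fragments at 423-438 and 823-838, with 5 and 1 exact places. At equal length the result was mixed. At 16 nt the fragment at 70-85 had 3 exact places, between the 5 and 1 of the internal ones, and 106 places with 1 mismatch, against 166 and 153. At 19 nt the fragment at 70-88 had 1 exact place and 3 with 1 mismatch, and that at 420-438 had 0 of either. At 22 nt the fragment at 70-91 had 2 places with 1 mismatch and that at 712-733 had 0. At 26 nt the fragment at 70-95 had 1 such place and those at 574-599, 712-737 and 999-1024 had 0. The files do not tell from which copy a read came.

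The summed 12S level differed widely between libraries. In PGCs it was 199 rpm in PGC11F, 915 in PGC11M, 113 in PGC12F, 140 in PGC12M, 541 in PGC13F and 916 in PGC13M. In SCs it was 223 rpm in SC11F, 766 in SC11M, 220 in SC12M, 350 in SC13F and 592 in SC13M. SC12F listed none of the 24, so each was below its lowest listed level of 14.7 rpm. A lower level can come from fewer molecules per cell or from other small RNAs taking more of the library, and these cannot be told apart here.

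As a share of the reads in the table, which sum to 16061 to 59545 per library, 12S fragments took 2.77% (PGC12M, 95% Wilson interval 2.58 to 2.98) to 13.3% (SC11M, 12.9 to 13.7) in the libraries that listed any. The intervals cover counting error only. The ratio of 12S to 16S reads was 0.0782 to 0.263 in these libraries, lowest in PGC12F and PGC12M and highest in PGC11M and SC11M.

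No difference in 12S fragments between PGCs and SCs passed the test. The summed level was 471 rpm ± 377 in the PGC libraries and 358 rpm ± 278 in the SC libraries (SD, n = 6 each), and SCs were higher in 2 of 6 pairs of the same sex and day. At gene level the log2 difference of SC minus PGC was -0.61 (SE 0.80), with an adjusted p of 0.732 by edgeR's quasi-likelihood test across 10 genes, of which 0% were called. It ranged from -0.24 without SC12F to -1.10 without SC12M, and was -0.34 without PGC12F, -1.07 with TMM scaling, -1.23 with DESeq2 and -0.21 with missing values set to the lowest listed count. For the 5′ end at position 70 it was -0.53 (SE 0.65), with an adjusted p of 0.982 by edgeR, and it ranged from -0.12 without SC12F to -0.94 without SC12M. Here 2.56% of 39 5′ ends were called. Of the 6 12S 5′ ends listed in at least 3 libraries, edgeR and DESeq2 called 0, and by edgeR 0 had an unadjusted p under 0.05. DESeq2 called 5.13% of the 39. Of the 24 fragments, 11 were listed in at least 3 libraries and were tested. By edgeR 0 of them was called, against 2.06% of 97 sequences, and 0 had an unadjusted p under 0.05. DESeq2 called 0 too, against 14.4% of the 97. By listing, 12 fragments were in both cell types, 10 in PGCs alone (41.7% of 24) and 2 in SCs alone (8.33%), and of all 159 exact sequences 36.5% were in PGCs alone and 11.9% in SCs alone.

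By sex, 12S levels were higher in the male library whenever cell type and day were matched (6 of 6 pairs), by 27.2 to 716 rpm. In the SC pair of E12.5 the female values, of SC12F, were below the listing minimum and taken as 0. As a share of the reads in the table, only the PGC pair of E12.5 turned, with 4.17% in PGC12F and 2.77% in PGC12M. The 16S level was also higher in the male library of every pair, by least in PGCs of E12.5 (1455 against 1445 rpm). The summed 12S level was 592 rpm ± 341 (SD, n = 6) in males and 238 rpm ± 189 (SD, n = 6) in females, with overlap between the groups. At position 70 it was 455 rpm ± 232 in males and 203 rpm ± 151 in females (SD, n = 6). The difference did not pass the main test. The log2 difference of male minus female was 1.60 (SE 0.82) at gene level, with an adjusted p of 0.183 by edgeR and 0% of 10 genes called. It was 0.78 with TMM scaling (adjusted p = 0.630), and it passed the test by edgeR, at a smaller value of 0.51 (adjusted p = 0.0347), when missing values were set to the lowest listed count. In that setting every unlisted fragment adds a filled count to the gene, and SC12F had filled counts alone. At position 70 the log2 difference was 1.44 (SE 0.66) and 0.85 with TMM scaling, with adjusted p of 0.430 and 0.967 by edgeR, and 2.56% of 39 5′ ends were called. Of the 6 12S 5′ ends edgeR called 0, and 1, position 70, had an unadjusted p under 0.05, while DESeq2 called 1, position 999, against 10.3% of the 39. Position 999 had reads in 4 male libraries alone and entered the test through them, so the direction of that call was fixed too. For comparison, the 16S rRNA had a log2 difference of 0.87 (SE 0.36) with an adjusted p of 0.0928.

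Of the 11 fragments tested by sex, edgeR called 0, against 0% of 97 sequences, and 0 had an unadjusted p under 0.05. Of these 11, the 16-nt fragment at 423-438 and the fragments at 70-88 and 999-1024 entered the test through male libraries alone, so their direction was fixed by the minimum of 3 libraries. DESeq2 called 2 of the fragments, the 19-nt one at 70-88 and the 26-nt one at 999-1024, each with an adjusted p of 0.0478, against 5.15% of the 97 sequences. Both were listed in 4 male libraries and in no female one, at 16.9 to 26.5 rpm. The calls set these counts against values below the listing minimum that were taken as 0, and they are given as a description. By listing, 8 fragments were in both sexes, 13 in males alone (54.2% of 24) and 3 in females alone, and of all 159 exact sequences 26.4% were in males alone and 23.3% in females alone. The difference between these shares was not tested. Among the fragments in males alone, 7 internal ones (41.2% of 17) were listed only in PGC11M, PGC13M or both. The same held for 15.1% of all 159 exact sequences.

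The mean 12S level was lowest at E12.5. The summed level was 526 rpm ± 369 at E11.5, 118 rpm ± 91.0 at E12.5 and 600 rpm ± 235 at E13.5 (SD, n = 4). The highest library of E12.5, SC12M at 220 rpm, was below the lowest of E13.5, SC13F at 350 rpm, while it overlapped the range of E11.5, which began at 199 rpm. At position 70 the levels were 417 rpm ± 262, 113 rpm ± 82.7 and 457 rpm ± 146 (SD, n = 4). By listing, 20 of the 24 fragments were found at E11.5, 4 at E12.5 and 22 at E13.5, against 122, 77 and 189 of all 204 sequences. The 16S level had the same pattern. Its highest library of E12.5, SC12M at 1643 rpm, was below its lowest of E13.5, SC13F at 2234 rpm. At E11.5 the 16S range began at 1143 rpm, in PGC11F.

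Across the 3 days the difference did not pass the main test either. At gene level the adjusted p was 0.188 by edgeR, with 0% of 10 genes called and a log2 difference of E13.5 minus E11.5 of 0.45. This was 0.23 without PGC11F, 0.26 without SC13F, 0.29 without PGC13F and 0.072 with TMM scaling, and at most 0.64 when another library was left out. At position 70 the adjusted p was 0.378 by edgeR, with 0% of 39 5′ ends called. Of the 6 12S 5′ ends edgeR called 0, with 3 at an unadjusted p under 0.05, and DESeq2 called 0, against 0% of the 39. Among the 11 fragments tested edgeR called 0, against 0% of 97 sequences, and 1 had an unadjusted p under 0.05, the 16-nt fragment at 70-85. DESeq2 called 0, against 0% of the 97. The direction from E11.5 to E13.5 at gene level turned to -0.20 with the table totals as library sizes. With missing values set to the lowest listed count the test over all 3 days passed by edgeR (adjusted p = 0.0232). That p does not belong to the difference of E13.5 minus E11.5, which was then 0.15 and was not tested on its own. In that setting every unlisted fragment adds a filled count, and SC12F had filled 12S counts alone. In the main fit the 16S rRNA had an adjusted p of 0.0835 over the 3 days at gene level by edgeR.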

How the data were processed

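Small-RNA reads of 12 libraries, 1 per condition, were analysed. The authors trimmed adapters with Trim Galore (minimum overlap of 1 base), collapsed identical reads, set a minimum of 10 CPM, used Bowtie with 1 mismatch allowed to align to nuclear and mitochondrial DNA, and retained sequences found in a piRNA collection. The deposited counts are raw counts of reads per unique sequence in each library.

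Sequences were placed on the mtDNA and the nuclear chromosomes of GRCm39 (GENCODE annotation) with up to 1 mismatch, on both strands, in Python 3.11.15. A sequence missing from a table was taken as 0 reads. Because a table holds only mitochondrial sequences, the study's totals of reads past its abundance filter were used as library sizes. They leave out rarer sequences, so the lowest listed level in rpm lies above 10. Counts were tested with edgeR 4.0.16 (quasi-likelihood, additive factors for day, sex and cell type, Benjamini-Hochberg over all units listed in at least 3 libraries, threshold 0.05), in units of sequence, 5′ end and gene. The spread came from this additive model, since no condition has a replicate. Day was an F test over the 3 days. DESeq2 1.42.0 and other library sizes, minimums, mismatches, blocks and left-out libraries were alternatives. Share and length differences within libraries were tested by exact sign-flip permutation. The procedures were tested on simulated data.

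Members and lists were chosen with earlier results of these data known. Values per library are given for the 5 fragments with the most reads, any called by a test, the shortest and longest of each kind, and 5′ ends with at least 3 fragments. The pairs with shared 3′ ends, the fragments at the 3′ end of the gene and those called by DESeq2 were described after their values were seen. Wilson intervals (95%) cover counting error only.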

Additional observations from a re-analysis of the deposited data

Results flagged for a closer look

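In groups of 4 to 10 libraries, a library whose gap to its nearest neighbour was large against the range of its group was marked by Dixon's criterion, which marks about 1 in 20 groups by chance. Of 27 groups examined, 2 had such a library. At E11.5 the share of 12S reads at position 70 was 65.7% in PGC11M, below the other 3 libraries, and the gap was 0.889 of the range. At E12.5 the internal level was 23.1 rpm in SC12M and no internal fragment was listed in the other 3 libraries, so that the gap was the whole range. The other 3 are values below the listing minimum taken as 0, and with these any listed value would have been marked. The 23.1 rpm rest on the single fragment at 342-370.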

How the results depend on the processing

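Internal fragments lie close to the lowest level the tables show, and each condition has 1 library. With DESeq2, 2 fragments were called by sex, against 0 with edgeR. Both were listed in male libraries alone and passed the minimum of 3 libraries through them, so that their direction was fixed. With missing values set to the lowest listed count of the library, the gene-level difference by sex was 0.51 (adjusted p = 0.0347) and the test over all 3 days gave adjusted p = 0.0232, both past the threshold by edgeR. The difference of E13.5 minus E11.5 was then 0.15 and was not tested on its own. In this setting every unlisted fragment adds a filled count to the gene, and SC12F had filled counts alone. The difference from E11.5 to E13.5 turned in sign at gene level with table totals as library sizes (-0.20) and with DESeq2 (-0.016). At position 70 it did so with table totals (-0.35), TMM (-0.15) and DESeq2 (-0.15). The cause was not tested. The length difference without sequences under 25 rpm was -6.27 nt (exact p = 0.125, 4 libraries). The first-base share difference was -20.1 percentage points with up to 1 mismatch (exact p = 0.00342, 12 libraries in place of 11), and 5.15 to 7.65 when 1 library was left out. Leaving out each library in turn gave gene-level differences by sex of 1.22 to 2.13 (adjusted p 0.159 to 0.445). Without PGC11M and PGC13M, and without PGC13F, choices made after seeing the data, 10 internal and 22 fragments in all were listed. With libraries matched for cell type and day as a replicate block, the difference by sex was 1.77 at gene level (adjusted p = 0.203 by edgeR) and 1.63 at position 70 (adjusted p = 0.409), and with those matched for sex and day that by cell type was -0.74 (adjusted p = 0.734). The block changed no call.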
